A study of Mus musculus with 18 samples.

Results

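The 38 genes described here encode the machinery that takes a cell through mitosis: CDK1 with its cyclins and activators, the mitotic kinases, the spindle checkpoint, the chromosomal passenger complex, the kinetochore, the spindle, the cytokinesis apparatus and the chromosome-bound proteins Top2a and Mki67. They were chosen by symbol. Each of the 38 symbols matched exactly 1 of the 55486 genes in the count table, and all 38 were among the 14273 genes with enough counts to be tested. Polyadenylated RNA was sequenced from normal fibroblasts (NFs) of the mammary gland of FVB/n mice, sorted by the surface peptidase CD26 into CD26- and CD26+ NFs and kept for 7 days in conditioned medium before RNA was taken. There were 3 libraries of CD26- NFs in control conditioned medium (replicates 1 to 3), 6 of CD26- NFs in tumour conditioned medium (CM; replicates 4 to 9), 3 of CD26+ NFs in control medium (replicates 10, 11 and 12) and 6 of CD26+ NFs in tumour CM (replicates 13 to 18). Within each cell type, every CM library received the medium of a different tumour line: 13-MCB-17, 10-SJK-221, 18-MCB-12, 13-MCB-44, 13-MCB-90 and 13-MCB-138, in that order of replicates. The lines were derived from tumours of a mouse model of invasive lobular carcinoma (ILC) in which Cre is driven by Wap in mammary epithelium. The NFs carried no Cre and were pooled over several female mice per sort, and neither the labels nor the methods assign libraries to separate sorts or cultures, so the p-values measure the spread between these libraries, which in tumour CM includes the differences between lines. The question asked of these genes was whether tumour-derived factors change them, and whether they do so alike in the 2 kinds of fibroblast.

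Mitosis starts when CDK1, bound to cyclin B and freed from inhibition by CDC25 phosphatases, phosphorylates its many substrates. Polo-like and Aurora kinases then build the spindle, the checkpoint holds back CDC20 and the anaphase-promoting complex (APC/C) until every kinetochore is attached, and kinesins and RhoA regulators divide the cell. Most genes of this set are transcribed late in the cell cycle, through the MuvB complex with B-MYB and FOXM1. A pair of promoter elements is tied to that timing, the cell cycle genes homology region (CHR), which MuvB binds, and the CCAAT box, which NF-Y binds. Their mRNA is low in cells that do not cycle, and these genes are therefore often read as a measure of how many cells in a culture are dividing. In bulk RNA, fewer dividing cells and less mRNA per dividing cell cannot be told apart.

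RefSeq promoter sequence (GRCm38.p6, 250 bases before to 50 after the start) was at hand for 31 of the 38 genes. The windows below show 2 elements that were more frequent in the set than in all promoters, and not every member holds both. They cover up to 100 bases upstream of the start that lie outside every annotated exon, with the CHR (TTTGAA or TTCGAA, on either strand, so that TTCAAA is a match) and the CCAAT box (CCAAT, or ATTGG on the other strand) in capitals, written 5′ to 3′ along the strand of the gene. The Cdk1 window runs from 126 to 27 bases before the start and the other 3 from 100 to 1. Cdk1 is shown at chr10:69352939-69353038 (minus strand), Top2a at chr11:99024190-99024289 (minus strand), Kif11 at chr19:37376282-37376381 (plus strand) and Mki67 at chr7:135716380-135716479 (minus strand).
Cdk1: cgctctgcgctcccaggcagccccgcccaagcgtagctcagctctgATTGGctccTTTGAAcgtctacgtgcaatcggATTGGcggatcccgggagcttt
Top2a: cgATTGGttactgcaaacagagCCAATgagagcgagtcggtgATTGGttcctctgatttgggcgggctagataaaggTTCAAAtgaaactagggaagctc
Kif11: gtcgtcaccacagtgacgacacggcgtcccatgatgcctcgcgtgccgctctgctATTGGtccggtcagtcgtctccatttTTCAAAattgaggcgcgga
Mki67: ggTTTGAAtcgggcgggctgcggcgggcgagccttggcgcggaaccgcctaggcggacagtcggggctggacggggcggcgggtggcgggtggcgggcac

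A CHR match lay in 23 of the 31 promoters (74.2%), against 21.7% of all 27025 promoters of the same length and 16.3% of those of tested genes. A CCAAT match lay in 24 of 31 (77.4%, against 41.1% of all and 43% of tested genes), and both elements together in 20 of 31 (64.5%, against 8.61% and 6.89%). In 21 of the 31 promoters a CHR began within 50 bases of the start, a count for which no share over all promoters was taken. In Kif11, the kinesin-5 motor that pushes the spindle poles apart, the CHR began 19 bases before the start and the CCAAT box 45 bases before it. Top2a held several CCAAT boxes in the printed window and its nearest CHR began 23 bases before the start. Mki67 differed, since its CHR closest to the start began 98 bases before it and its CCAAT boxes lay further upstream than the window. These are letter matches, not measured binding.

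Total counts per library ran from 9725723 to 14585349, and no pair of replicates was close enough to be one library deposited in duplicate. Values are given as CPM, a gene's count as a proportion of its library total, with totals scaled by the trimmed mean of M values. The lowest count of any of the 38 genes in any library was 46, for Cdc25c. The 10 fibroblast markers summed to 16513 to 18472 CPM in CD26- control, 9801 to 21463 CPM in CD26- CM, 62458 to 79429 CPM in CD26+ control and 29159 to 52079 CPM in CD26+ CM libraries. In CD26- NFs, 4 of them were higher with CM (background 7.88%) and 2 lower (background 7.28%), and in CD26+ NFs 3 were higher (15.2%) and 5 lower (13.4%). Pdgfra went from a mean of 439 to 913 CPM in CD26+ NFs, while Col3a1 went from 23442 to 6625 CPM and Fap from 13.1 to 7.10 CPM (the latter 2 named after their values were seen). Dpp4, which encodes CD26, was at 0 to 2 counts in the 6 control libraries, at 1 to 11 counts in the CD26- CM and at 8 to 104 counts in the CD26+ CM libraries. The sort had removed cells with EpCAM, CD49f, CD45 or CD31 on their surface. The summed level of 12 epithelial markers was 4366 to 4762 CPM in CD26- control, 2706 to 4379 CPM in CD26- CM, 735 to 1291 CPM in CD26+ control and 662 to 1573 CPM in CD26+ CM libraries, with 823 CPM in replicate 18. Epcam averaged 231 CPM in CD26- and 58.3 CPM in CD26+ control libraries. The 10 immune markers summed to 24.4 to 54.9 CPM. Ptprc, Adgre1, Itgam, Cd3e, Cd79a and Tyrobp did not exceed 3 counts in any library, while Csf1r had group means of 17.5 to 21.7 CPM and Cd14 of 7.17 to 20.7 CPM. The 8 endothelial markers summed to 2.26 to 9.22 CPM. The 9 muscle markers summed to 48.6 to 75.9 CPM in CD26- control, 47.7 to 127 CPM in CD26- CM, 12.2 to 18.2 CPM in CD26+ control and 5.99 to 19.6 CPM in CD26+ CM libraries. Of these, the muscle regulator Myod1 was at 7 to 62 counts in the CD26- CM libraries and at most 1 count elsewhere, and Acta1, not called, averaged 62.9 CPM in CD26- control and 48.4 CPM in CD26- CM libraries. The other 5 of the 6 muscle markers tested were higher with CM in CD26- NFs. The 6 pericyte markers summed to 160 to 173, 56.8 to 109, 58.9 to 77.8 and 59.3 to 98.3 CPM in the same order of groups, and 2 of the 5 tested were lower with CM in CD26- NFs. Of the 11 epithelial markers tested, 9 were lower in CD26+ NFs in either medium, where 25.4% of all tested genes were in control medium and 29.3% in tumour CM, and the basal marker Trp63, not called, averaged 6.22 CPM in CD26+ and 4.58 CPM in CD26- control libraries. The part of these other cell types in the results below was not tested.

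One library stood apart for these genes. Replicate 18, CD26+ NFs in CM of 13-MCB-138, had the highest value of the 6 CD26+ CM libraries for all 38 genes, and the main counts, medians and named CM effects of the 38 genes in CD26+ NFs are given with and without it. It was picked from these same values. Leaving it out lowers the CD26+ CM level of each gene by construction, so values without it are a description and not a separate test.

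Tumour CM was followed by lower mitotic mRNA in CD26+ NFs and by no called change in CD26- NFs. In CD26+ NFs, 37 of the 38 genes were lower in CM (edgeR quasi-likelihood test, FDR under 0.05), where 13.4% of all tested genes were called lower and 28.6% in either direction, and none was higher. The log2 fold changes ran from -1.10 to -0.55 with a median of -0.85, where the median of all tested genes was -0.0040. Without replicate 18, all 38 were lower (background 17.5%) and the median was -1.08. The counts by role given further below are parts of the 37 and rest on the same libraries. Each stands against the same 13.4% of all tested genes and is not a separate result. In CD26- NFs, 0 of 38 were called, where 15.2% of all tested genes were (7.28% lower and 7.88% higher). None of the 38 reached an unadjusted p under 0.05 there, DESeq2 called 0 as well, and the median log2 change was 0.015. The 95% intervals of the CD26- effects differed in width between genes, the lowest bound of any gene being -0.64 and the highest 0.81. They rest on a spread shared over all groups, so that of the CD26+ CM group widens them. None of the 38 passed the limit of 2 on the log2 scale, which 0.904% of all tested genes did in CD26- and 2.01% in CD26+ NFs. In a fit of the CD26+ libraries alone, in which the wide spread of the CD26+ CM group is not averaged with that of the tighter groups, 28 of 38 were called lower, where 11.3% of all genes of that fit were.

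**Figure D1:**
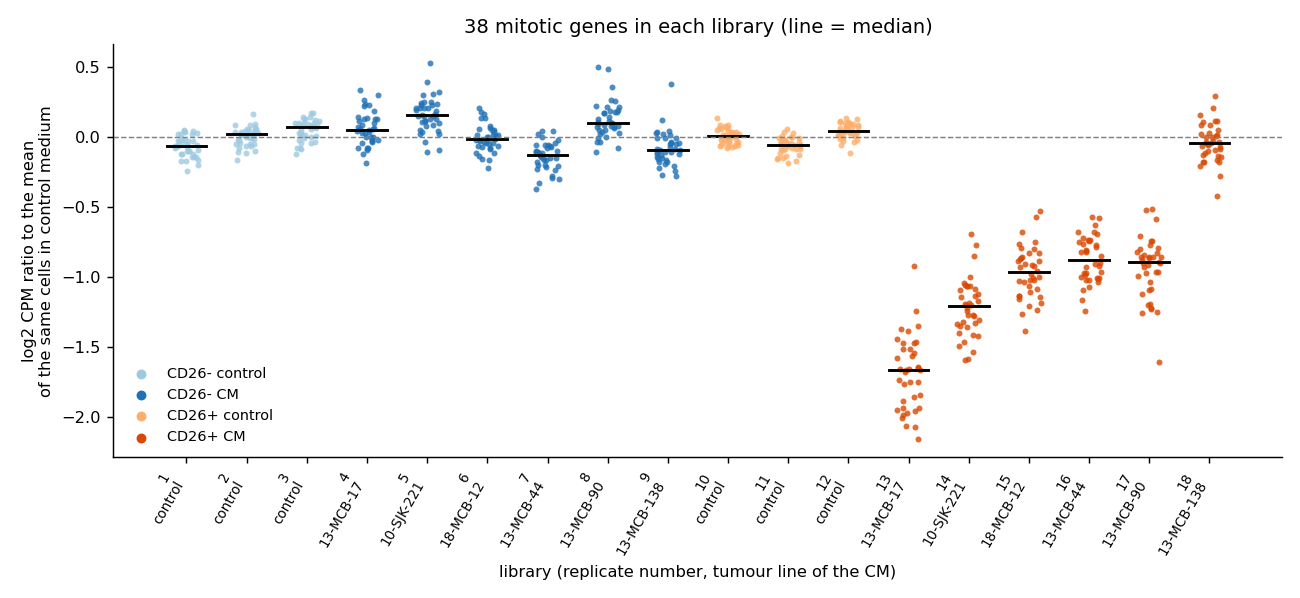
Each point is 1 of the 38 mitotic genes in 1 library, as the log2 ratio of its CPM to the mean of the 3 control libraries of the same cell type, and black lines are medians. The 38 points of each of replicates 13 to 17 lie below 0, while replicate 18 and the 6 CD26- CM libraries scatter around it.

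Per library, the median of the 38 genes in the CD26+ CM libraries was 31.6% of the CD26+ control mean with 13-MCB-17, 43.3% with 10-SJK-221, 51.2% with 18-MCB-12, 54.6% with 13-MCB-44, 53.8% with 13-MCB-90 and 97.3% with 13-MCB-138. In each of the first 5 of these libraries all 38 genes were below all 3 control libraries. In replicate 18, 14 genes were below and 8 above all 3 controls. Over the 6 CD26- CM libraries the medians were 91.5% to 111% of the CD26- control mean. In replicates 4 to 9, in that order, 4, 0, 7, 22, 0 and 20 of the 38 genes lay below all 3 CD26- controls. Above all 3 lay 16, 30, 5, 0, 23 and 1. For these counts in single libraries the share of all tested genes was not computed. The 6 CD26+ CM libraries did not overlap the controls for 14 of 38 genes, against 11.6% of all tested genes, and without replicate 18 this was 38 of 38, against 18.1%. In CD26- NFs it was 0 of 38, against 10.3%.

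**Figure D2:**
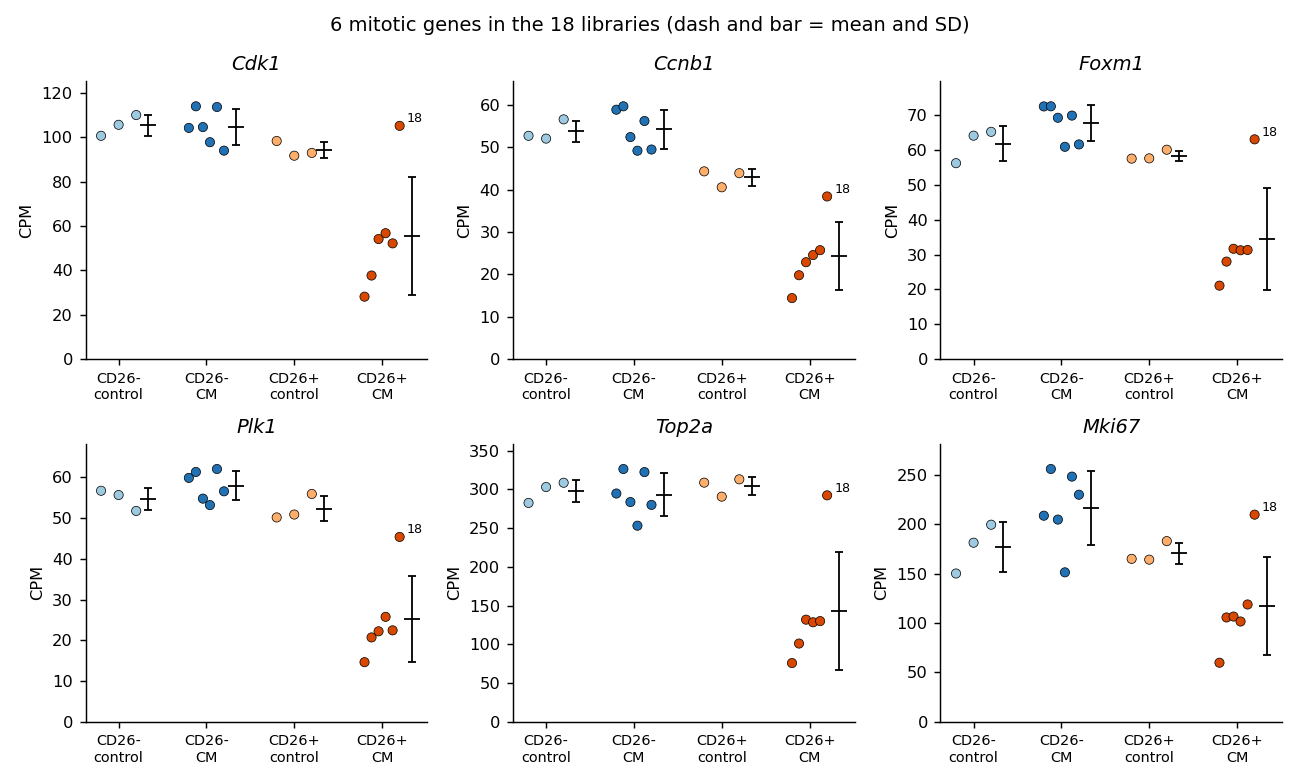
CPM of Cdk1, Ccnb1, Foxm1, Plk1, Top2a and Mki67 in the 18 libraries by group (n = 3 per control group and 6 per CM group), with the mean and SD beside the points and replicate 18 marked. In each panel 5 CD26+ CM libraries sit below every control library, and replicate 18 is at 38.4 CPM for Ccnb1 and 292 CPM for Top2a.

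CDK1 and its regulators fell in CD26+ NFs, 7 of 7 being lower with CM, with a median log2 change of -0.83 (-1.05 without replicate 18). Cdk1 (ENSMUSG00000019942, chromosome 10, 69335146 to 69352938 on GRCm38), the kinase that drives entry into mitosis, was at 98.3, 91.7 and 93.0 CPM in the CD26+ control libraries. In the CD26+ CM libraries its lowest value was 28.1, its median 53.1 and its highest 105 CPM, the last being replicate 18, which was above all 3 controls while the other 5 were below them. Its log2 change was -0.77 ± 0.24 (SE; edgeR FDR 0.0244), and -1.05 without replicate 18. In CD26- NFs Cdk1 was at 101, 106 and 110 CPM in control medium and at 94.0 to 114 CPM with CM, with a log2 change of -0.010 ± 0.24. That SE rests on a spread shared over all groups and was 0.147 without replicate 18, a CD26+ library. The call for Cdk1 in CD26+ NFs did not hold without replicate 10, 11 or 12 (FDR 0.0563 to 0.0725) or in the fit of CD26+ libraries alone (FDR 0.0985).

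Ccnb1 (chromosome 13, 100778650 to 100786570), the B-type cyclin that activates Cdk1, was at 44.4, 40.6 and 43.9 CPM in CD26+ control libraries and had a lowest value of 14.4, a median of 23.7 and a highest value of 38.4 CPM with CM. All 6 CM libraries lay below the 3 controls. Its log2 change was -0.83 ± 0.18 (SE; edgeR FDR 0.00218), or -1.01 without replicate 18, against 0.013 ± 0.17 in CD26- NFs. Cks2, a small subunit that docks CDK1 to its substrates, was among the 3 genes with the smallest p. It fell from 13.0 ± 1.12 CPM (SD over 3 libraries) to 8.61 ± 1.75 CPM (SD over 6), a log2 change of -0.60 ± 0.12 (edgeR FDR 0.00132; -0.72 without replicate 18), with the smallest SE of the set.

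Foxm1 (chromosome 6, 128362967 to 128376146), the forkhead factor that transcribes late cell cycle genes, was at 57.5, 57.6 and 60.1 CPM in CD26+ control libraries. With CM its lowest value was 21.1, its median 31.3 and its highest 63.1 CPM. Replicate 18 was above all 3 controls and the other 5 libraries were below them. The log2 change was -0.77 ± 0.21 (SE; edgeR FDR 0.00983), and -1.04 without replicate 18; in the fit of CD26+ libraries alone the FDR was 0.0566. Exons of Foxm1 overlap those of Tex52 and Gm44596 on the same strand, so its counts depend on how shared reads were assigned. In CD26- NFs Foxm1 was at 67.8 ± 5.23 CPM (SD, n = 6) with CM and 61.9 ± 4.91 CPM (SD, n = 3) without.

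All 6 mitotic kinases were lower with CM in CD26+ NFs, with log2 fold changes of -1.06 to -0.80 (-1.31 to -1.01 without replicate 18). Plk1 (chromosome 7, 122159439 to 122169873), the Polo-like kinase needed for spindle poles and for mitotic entry, was at 50.2, 50.9 and 56.0 CPM in CD26+ control libraries. With CM its lowest value was 14.6, its median 22.3 and its highest 45.4 CPM, so that even replicate 18 lay below the controls. The log2 change was -1.06 ± 0.20 (SE; edgeR FDR 0.000931), or -1.31 without replicate 18, and in CD26- NFs it was 0.084 ± 0.20. Aurka and Aurkb, the Aurora kinases of the spindle poles and of the centromeres, had log2 fold changes of -0.81 ± 0.18 and -0.80 ± 0.22 in CD26+ NFs, or -1.01 and -1.08 without replicate 18. Aurkb ran from 24.3 to 38.2 CPM over the CD26- CM libraries, and its log2 fold change in CD26- NFs was 0.22 ± 0.22 (edgeR FDR 0.543).

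The 5 checkpoint and APC/C genes were all lower with CM in CD26+ NFs, with a median log2 change of -0.80 (-0.99 without replicate 18). Cdc20 (chromosome 4, 118432901 to 118437352), the APC/C activator that the checkpoint restrains, had the smallest p of the set. It was at 78.0, 73.6 and 77.0 CPM in CD26+ control libraries, and its lowest, median and highest values with CM were 19.3, 35.8 and 57.1 CPM. No CM library reached the controls, replicate 18 included. The log2 change was -1.10 ± 0.19 (SE; edgeR FDR 0.000374), or -1.29 without replicate 18, and for CD26- NFs it was -0.042 ± 0.19. The smallest change of the 5 was that of Mad2l1, a checkpoint protein that binds CDC20, at -0.64 ± 0.23 (edgeR FDR 0.0433; -0.89 without replicate 18). The call of Mad2l1 was lost without replicate 4, 5, 6, 10, 11, 12, 13, 14, 15 or 17 (FDR 0.0508 to 0.13).

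The 3 genes of the chromosomal passenger complex, Birc5 (survivin), Incenp and Cdca8 (borealin), which bring Aurora B to the centromere, fell by 0.94, 0.76 and 0.86 on the log2 scale in CD26+ NFs. Without replicate 18 their log2 changes were -1.24, -0.98 and -1.05. In CD26- NFs all 3 values were above 0, from 0.10 to 0.15, and none was called. Kinetochore genes were lower in 6 of 6 cases in CD26+ NFs, from -1.10 to -0.72. Ndc80 and Nuf2, which form the microtubule-binding arm of the kinetochore, had log2 fold changes of -1.10 ± 0.24 and -1.07 ± 0.24, or -1.38 and -1.37 without replicate 18. Cenpf, a large protein of the outer kinetochore, had -0.72 ± 0.21, or -0.91 without it, and its call was lost without replicate 12 (FDR 0.0536).

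Spindle genes were lower in 4 of 4 cases and cytokinesis genes in 5 of 5, again as parts of the count over the whole set. Kif11 fell from 64.4 ± 1.96 CPM (SD over 3 libraries) to 31.9 ± 17.1 CPM (SD over 6), or to 25.2 ± 5.18 CPM (SD, n = 5) without replicate 18, which was at 65.6 CPM. Tpx2, which activates Aurora A on spindle microtubules, had the smallest change of the 4, -0.73 ± 0.18, or -0.94 without replicate 18. The 5 cytokinesis genes, among them Kif23 of the central spindle, the microtubule bundler Prc1, the RhoA exchange factor Ect2 and the cortical scaffold Anln, moved within a narrow range, from -0.91 to -0.77, or -1.16 to -0.98 without replicate 18. None of the 9 was called in CD26- NFs.

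Of the 2 genes for chromosome-bound proteins, 1 was called. Top2a (chromosome 11, 98992943 to 99024189), the topoisomerase that untangles sister chromatids, was at 309, 291 and 313 CPM in CD26+ control libraries and had a lowest value of 75.8, a median of 129 and a highest value of 292 CPM with CM. Its log2 change was -1.09 ± 0.25 (SE; edgeR FDR 0.00414), and -1.43 without replicate 18. Mki67 (chromosome 7, 135689784 to 135716361), the surfactant of mitotic chromosomes that is stained as Ki-67, was at 165, 164 and 183 CPM in CD26+ control libraries and at 59.7, 106 and 210 CPM as lowest, median and highest value with CM. Replicate 18 was above all controls and the other 5 were below. Mki67 was the 1 gene not called over the 6 libraries, with a log2 change of -0.55 ± 0.24 (edgeR FDR 0.103), and it was called without replicate 18 (-0.80, FDR 0.00182). In CD26- NFs it also had the smallest p of the set, at 0.29 ± 0.25 (edgeR FDR 0.467), its CM libraries running from 151 to 256 CPM against 150 to 199 CPM in control medium.

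**Figure D3:**
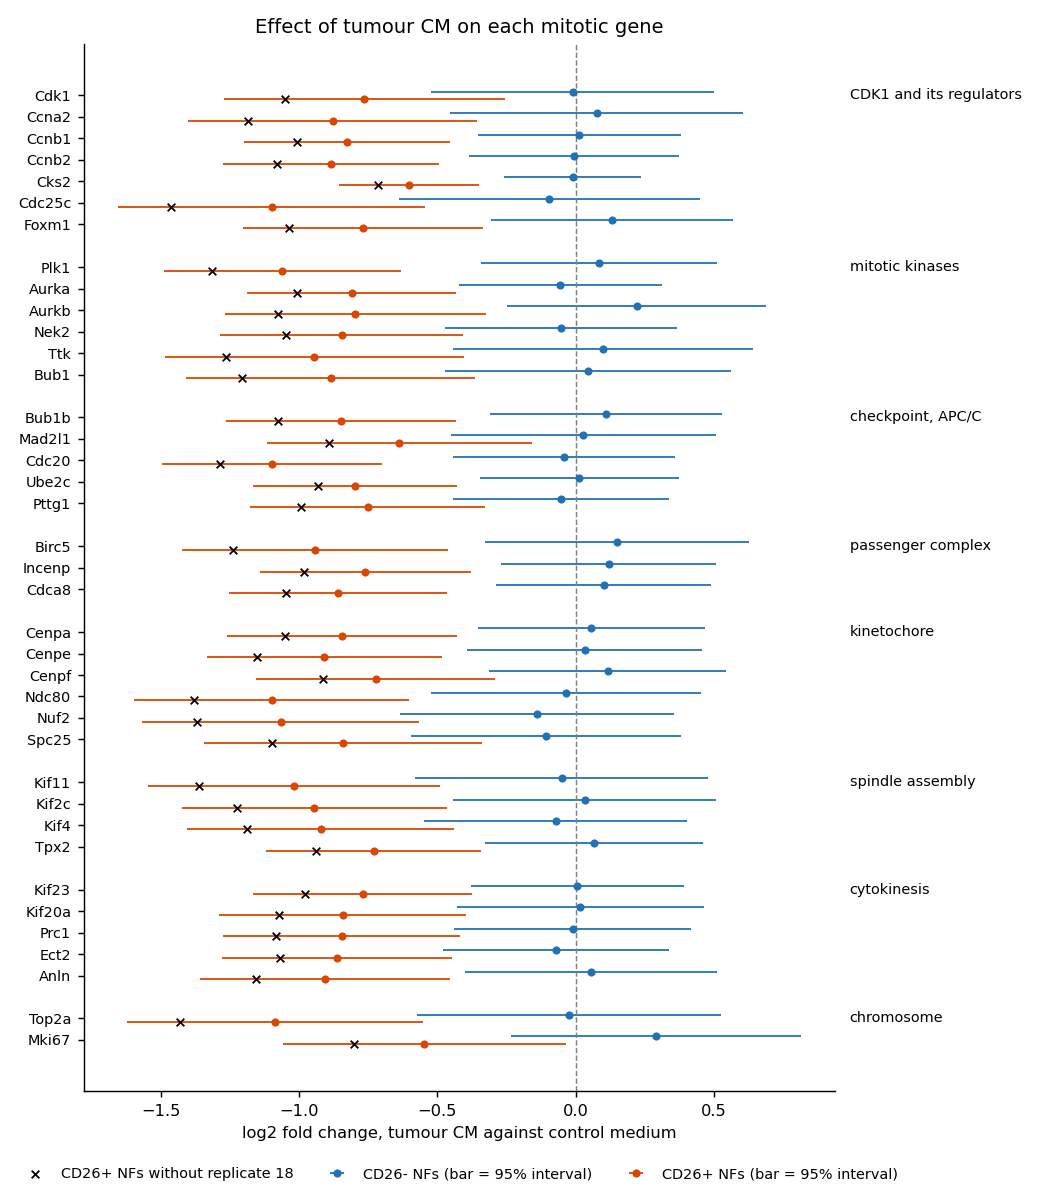
Log2 fold change of tumour CM against control medium for each of the 38 genes, by role, in CD26- (blue) and CD26+ (orange) NFs, with 95% intervals from edgeR, and the CD26+ value without replicate 18 as a cross. All CD26- intervals include 0 and all CD26+ points lie between -1.10 and -0.55. Every cross is further from 0, as leaving out the highest library must give.

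In control medium 3 of 38 genes were lower in CD26+ than in CD26- NFs, where 25.4% of all tested genes were called lower, and none was higher (background 25%; 50.3% in either direction), with a median log2 difference of -0.18. With library totals only, 7 were lower (background 35.1%) and the median was -0.33. The 3 were Pttg1 (securin, which guards sister chromatid cohesion), Kif23 and Aurka. Pttg1 was at 21.0, 18.2 and 21.8 CPM in CD26- and 12.5, 12.5 and 11.1 CPM in CD26+ control libraries, a log2 difference of -0.76 ± 0.22 (SE; edgeR FDR 0.00856). Kif23 was at 63.0, 67.3 and 67.1 CPM against 44.4, 38.9 and 42.6 CPM (-0.65 ± 0.22, FDR 0.0180). Aurka was at 50.8, 54.0 and 50.7 CPM against 35.6, 35.5 and 34.6 CPM (-0.56 ± 0.20, FDR 0.0305). None of these 3 overlapped between the groups. The call of Aurka was lost without replicate 1, 2, 3, 10, 11 or 12 (FDR 0.0576 to 0.0772), that of Kif23 without replicate 11 (FDR 0.0681), and that of Pttg1 in none of the 18 fits that left out 1 library. Over all 38 genes, 22 did not overlap. Of these, 21 were lower in CD26+ NFs, against 32.1% of all tested genes, and 1 was higher, against 32.6%. The higher one was Incenp (named after its values were seen), at 54.6, 63.3 and 59.9 CPM in CD26- and 75.5, 64.4 and 66.0 CPM in CD26+ control libraries, which was not called. The count of 3 was 1 without replicate 11 (background 21%), 6 without replicate 13 (25.3%) and 7 without replicate 18 (25.8%). In a fit of the 6 control libraries alone, which spread less than the CM libraries, 21 genes were lower and 1 higher (backgrounds 30% and 29.8%).

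In tumour CM all 38 genes were lower in CD26+ NFs, where 29.3% of all tested genes were called lower, another 29.3% higher and 58.6% in all, with a median log2 difference of -1.12 and a range of -1.46 to -0.67. Kif23, Pttg1 and Aurka again had the smallest p, with -1.43 ± 0.16, -1.46 ± 0.17 and -1.31 ± 0.15 (SE; edgeR FDR at most 8.83e-07), or -1.63, -1.69 and -1.51 without replicate 18. Kif23 had a lowest value of 54.4, a median of 66.1 and a highest value of 77.8 CPM in CD26- CM libraries and of 16.2, 22.3 and 41.1 CPM in CD26+ CM libraries. The ranges of the 2 groups did not overlap for Kif23, and they did not overlap for 21 of 38 genes (background 15.7%), or for 38 of 38 without replicate 18 (19%). Without replicate 18 all 38 were called lower (background 30%) with a median of -1.35, and with the CM line as a replicate block all 38 were (31.4%). The limit of 2 was passed by none of the 38 in control medium (background 5.97%) or in tumour CM (4.16%). The 2 comparisons of cell types share no library, while each of them shares libraries with the comparisons of medium.

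The effect of CM differed between the 2 kinds of fibroblast for 9 of the 38 genes, all with the lower value in CD26+ NFs, where 3.01% of all tested genes were called in that direction, 4.53% in the other and 7.53% in all. None passed the limit of 2 (background 0.392%). The 9 were Ccnb1, Ccnb2, Cks2, Plk1, Bub1b, Cdc20, Birc5, Incenp and Cdca8, and they include all 3 passenger genes. The smallest p belonged to Plk1, with a difference of -1.14 ± 0.29 (SE; edgeR FDR 0.0248), Cdc20, with -1.06 ± 0.27 (FDR 0.0264), and Cdca8, with -0.96 ± 0.27 (FDR 0.0355). Without replicate 18 these differences were -1.40, -1.25 and -1.15. The call of Plk1 was lost in 4, that of Cdc20 in 6 and that of Cdca8 in 8 of the 18 fits that left out 1 library, and those of the other 6 genes in 13 to 15. The difference had an unadjusted p under 0.05 for 37 of the 38 genes, all but Mad2l1 (chosen here after its value was seen), and the median difference was -0.89. The count of 9 lay close to the threshold and rested on single libraries. With the CM line as a replicate block it was 33 (background 8.21%), and without replicate 18 it was 38 (8.43%). DESeq2 gave 22 (4.69%) and scaling by library totals only gave 4 (2.52%). It was 0 without replicate 2, 3, 11 or 12 (backgrounds 1.99%, 1.2%, 0.882% and 1.63%) and 1 without replicate 1 or 10 (1.96% and 1.69%). It was 2 without replicate 5 or 8 (2.44% and 2.28%), 3 without replicate 4, 6, 14 or 17 (2.45%, 2.57%, 2.53% and 2.62%) and 4 without replicate 15 or 16 (2.88% and 2.82%). The estimates themselves moved less, the median difference staying between -1.12 and -0.79 over the 18 fits that left out 1 library.

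The 6 lines were compared with 1 library per line and cell type. The mean log2 CPM over the 38 genes was different in CD26+ from CD26- NFs by -1.93 with 13-MCB-17, -1.57 with 10-SJK-221, -1.25 with 13-MCB-90, -1.15 with 18-MCB-12, -0.93 with 13-MCB-44 and -0.16 with 13-MCB-138. In the first 5 pairs all 38 genes were lower in CD26+ NFs, and with 13-MCB-138 26 were. Within CD26+ NFs the order of the extremes was the same for every gene: 13-MCB-17 was lowest for 38 of 38 and 13-MCB-138 highest for 38 of 38, and 10-SJK-221 was second lowest for 30. Between them, 18-MCB-12, 13-MCB-90 and 13-MCB-44 had mean log2 CPM values of 4.56, 4.59 and 4.66, which single libraries cannot tell apart. Within CD26- NFs the lines stood in another order, 13-MCB-44 being lowest for 24 genes and 10-SJK-221 highest for 24. A test of the line over the 12 CM libraries, with cell type in the model, called 0 of 38 genes, where 6.56% of all tested genes were called. None had an unadjusted p under 0.05 with edgeR, DESeq2 called 0 with 2 under 0.05, and the smallest p were 0.101 for Mki67, 0.154 for Cenpf and 0.204 for Kif11. This test takes the line to act alike in both cell types. Without replicate 9, the CD26- library of 13-MCB-138, it called 18 of 38 (background 15.3%), a fit in which that line is left with replicate 18 alone. With no filter on low counts it called 5 of 38 (8.33%).

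**Figure D4:**
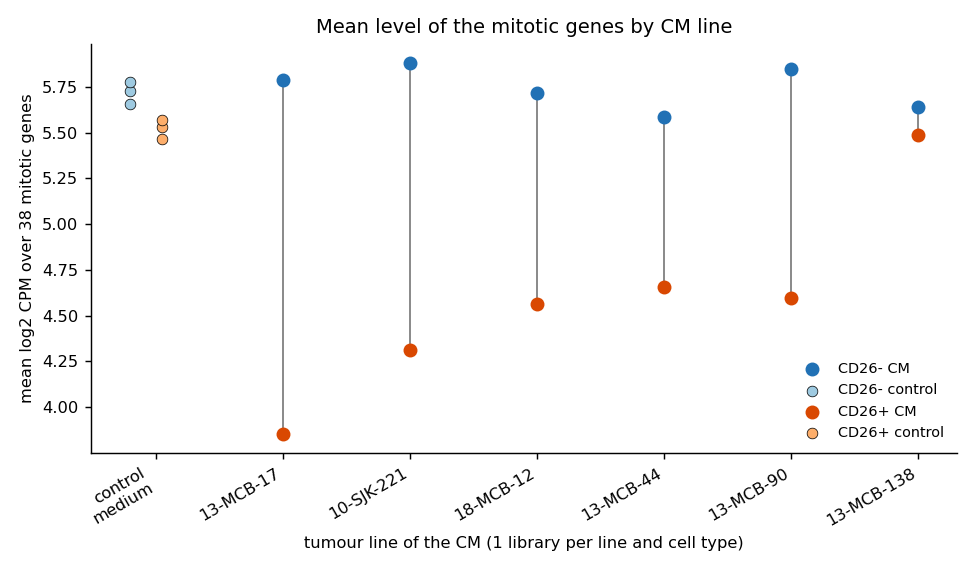
Mean log2 CPM over the 38 genes for each CM line in CD26- (blue) and CD26+ (orange) NFs, joined by a grey line, with the 3 control libraries of each cell type at the left. The gap is widest with 13-MCB-17 (-1.93) and narrowest with 13-MCB-138 (-0.16), and the vertical axis does not start at 0.

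The 38 genes varied together. After removal of the group means, the mean correlation over all pairs of the 38 genes was 0.920 across the 18 libraries. Over all tested genes it was 0.00051, a signed mean in which positive and negative pairs cancel. That value therefore gives no level for other sets of genes. For the 38 genes it was 0.819 over the 17 libraries without replicate 18, 0.635 over the 9 CD26- libraries and 0.877 over the 8 CD26+ libraries other than replicate 18. These values share their libraries and are given as a description. The SD of log2 CPM in the CD26+ CM group was 0.53 for the median gene of the set against 0.17 for the median of all tested genes, while in the 3 other groups it was 0.078 to 0.129 against 0.097 to 0.151. Replicate 18 is part of the CD26+ CM value, and this SD was not taken without it. The levels themselves differed widely between genes. Per kilobase of exon, Cdc20 had 40.1 CPM and Top2a 33.1 CPM in CD26- control libraries, and Cdc25c, a CDK1-activating phosphatase, had 2.89 CPM.

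Genes outside the set were read from 4 further lists. Of 81 other mitotic genes, 68 were lower and 1 was higher with CM in CD26+ NFs (backgrounds over all tested genes 13.4% and 15.2%), with a median log2 change of -0.80. The smallest p among them belonged to Zwint, a kinetochore linker and the 1 gene that rose, from 165 ± 1.99 CPM (SD over 3 libraries) to 201 ± 12.2 CPM (SD over 6; 0.28 ± 0.048, edgeR FDR 0.000366), and to Cks1b, the partner of Cks2, which fell from 62.3 ± 0.83 to 41.5 ± 7.59 CPM (-0.59 ± 0.11, FDR 0.000520). In the fit of CD26+ libraries alone 40 of the 81 were lower (background 11.3%). In CD26- NFs 1 of the 81 was called (background 15.2%), Cdc14a, a phosphatase, which was lower (-0.49 ± 0.14, edgeR FDR 0.0303), a call lost without replicate 1, 2, 3, 4, 6 or 8 (FDR 0.0546 to 0.144). Their CM effects differed between cell types for 18, 17 of them lower in CD26+ NFs, led by Spc24 and by Cenpm, whose call was lost without replicate 3 or 11 (background 3.01% lower). The 17 became 68 without replicate 18 (background 8.43%), 51 with the line as a block (8.21%), and 3 without replicate 3 or 11 (1.2% and 0.882%).

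Of 35 genes of DNA replication and the G1/S transition, 21 were lower and none higher with CM in CD26+ NFs (backgrounds 13.4% and 15.2%), with a median of -0.59. Dut, which keeps dUTP out of DNA, fell by 0.59 ± 0.13 (SE, log2; edgeR FDR 0.00220), and E2f7, a repressor of the E2F family, by 0.92 ± 0.24 (FDR 0.00806). The count of 21 was 32 without replicate 18 (background 17.5%), 8 without replicate 10 or 12 (9.7% and 9.49%), 9 without replicate 11 (8.83%) and 13 without replicate 14 or 17 (11.3% and 11.8%). In the fit of CD26+ libraries alone it was 3, near the 11.3% of all genes called lower there. In CD26- NFs 1 of the 35 rose (background 7.88%), Cdt1, which licenses replication origins, from 15.8 ± 1.41 CPM (SD over 3 libraries) to 22.0 ± 2.05 CPM (SD over 6; 0.48 ± 0.15, edgeR FDR 0.0347), a call lost without replicate 1, 2, 3, 4, 5 or 8 (FDR 0.0531 to 0.164). It was also the gene of this list with the smallest p for the difference between cell types (-0.83 ± 0.20, FDR 0.0195; FDR 0.0636 without replicate 3).

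Of 17 regulators of the E2F, RB, MuvB and NF-Y groups, 3 were lower and 1 was higher with CM in CD26+ NFs, with a median of -0.16. With backgrounds of 13.4% lower and 15.2% higher over all tested genes, these counts do not set the list apart. Mybl2, the B-MYB partner of MuvB, was at 17.6 ± 0.509 CPM (SD, n = 3) in control medium and 9.61 ± 5.10 CPM (SD, n = 6) with CM, with 19.3 CPM in replicate 18 (-0.89 ± 0.25, edgeR FDR 0.0143; FDR 0.0743 in the fit of CD26+ libraries alone). E2f4, the E2F of the repressive DREAM complex, rose from 48.9 ± 2.11 to 59.8 ± 5.68 CPM (0.29 ± 0.091, edgeR FDR 0.0223), a call that was lost without replicate 10, 11, 12, 13, 14 or 17 (FDR 0.051 to 0.107). In CD26- NFs 1 of the 17 was lower and 1 higher, near the shares of all tested genes given above for that comparison. The lower one was Rb1 (edgeR FDR 0.0187), a call lost without replicate 1 or 3 (FDR 0.0906 to 0.0907). The higher one was E2f4, by 0.28 ± 0.091 (edgeR FDR 0.0472), a call lost in 10 of the 18 fits that left out 1 library, without replicate 1, 2, 3, 4, 5, 6, 8, 10, 11 or 12 (FDR 0.0551 to 0.198). The 3 genes lower in CD26+ NFs became 9 without replicate 18 (background 17.5%) and 1 without replicate 11, 12 or 13 (8.83%, 9.49% and 12.2%).

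Of 18 CDK inhibitors, D cyclins, their kinases and p53 targets, 6 rose and 4 fell with CM in CD26+ NFs, where 15.2% of all tested genes rose and 13.4% fell. Cdkn1a, which encodes the CDK inhibitor p21, rose from 145 ± 11.7 CPM (SD over 3 libraries) to 268 ± 54.2 CPM (SD over 6), with 196 CPM in replicate 18, a log2 change of 0.89 ± 0.13 (SE; edgeR FDR 7.23e-05). Cdkn1a was at 339 ± 19.5 CPM (SD, n = 3) in control medium and 362 ± 16.8 CPM (SD, n = 6) with CM in CD26- NFs, and its CM effect differed between cell types by 0.79 ± 0.17 (edgeR FDR 0.0118; FDR 0.0586 without replicate 11). Ccnd2, the cyclin D2 gene that couples growth factor signals to the cycle, rose in both, by 0.87 ± 0.094 in CD26+ NFs (edgeR FDR 4.73e-06) and by 0.46 ± 0.092 in CD26- NFs (FDR 0.00351). In control medium 8 of the 18 were lower and 5 higher in CD26+ NFs, against the shares of all tested genes given above for control medium. The smallest p belonged to Ccng1 and Mdm2, both p53 targets, which were lower, with log2 differences of -1.28 and -1.27.

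**Figure D5:**
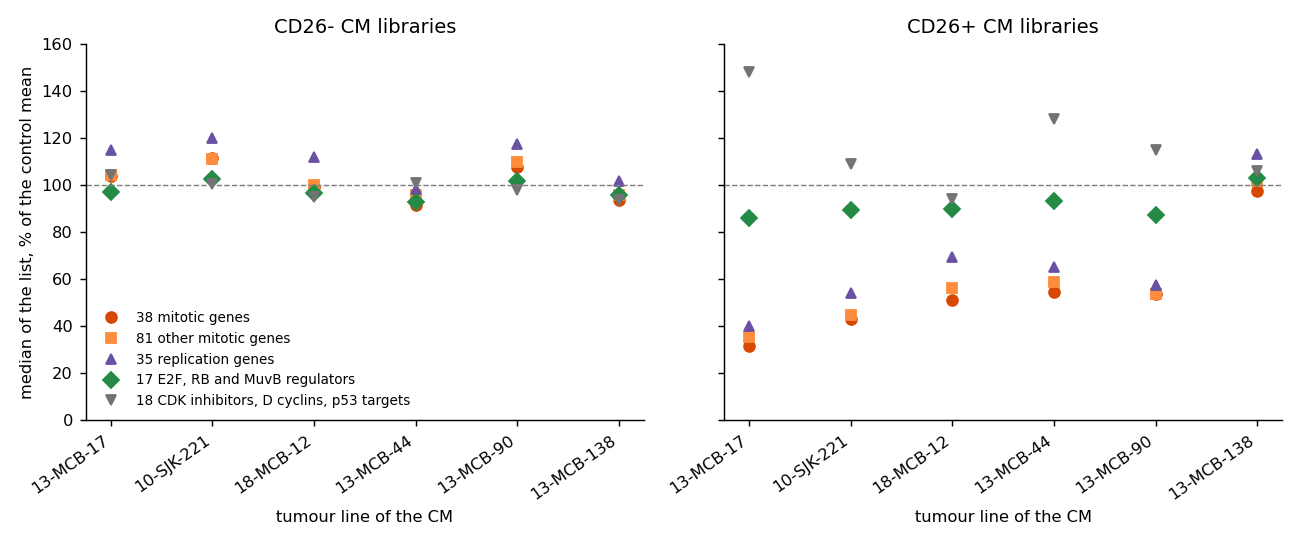
Median of each list in each CM library as a percent of the mean of the control libraries of the same cell type (dashed line, 100%), by CM line. In CD26+ NFs the 38 genes, the 81 other mitotic genes and the 35 replication genes are lowest with 13-MCB-17 (31.6%, 35.3% and 40.2%) and at 97.3%, 102% and 113% with 13-MCB-138, while the regulators stay between 86.1% and 103%.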

How the data were processed

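The authors isolated polyadenylated RNA, made TruSeq stranded libraries and sequenced single-end reads. Per the labels, the submitters' notes name HISAT2 2.1.0, HTSeq and GRCm38; the annotation release and the strand setting are not given in the sources used here. The deposited file holds raw counts per Ensembl gene. The row without a gene name held 0 counts. Coordinates equalled GENCODE M21 for all 38 genes. Exons of 10 of them (Ccna2, Cdc25c, Plk1, Nek2, Cdc20, Ube2c, Cdca8, Kif4, Kif20a and Prc1) overlap a gene of the opposite strand.

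Groups came from the sample titles. Counts were filtered with filterByExpr, scaled by TMM and tested in edgeR 4.0.16 (R 4.3.3) by quasi-likelihood F tests, with 1 term per group and Benjamini-Hochberg adjustment over all tested genes; a call is an FDR under 0.05. The log2 limit of 2 follows the study. Log2 CPM used a prior count of 2. The line test used the 12 CM libraries (13344 genes). The script was tested on simulated data. Alternatives were DESeq2 1.42.0, 3 other scalings, 2 other filters, 2-group fits, the line as a replicate block, and leaving out each library. Over all genes, residuals of the 2 libraries of a line correlated at 0.247 to 0.406 in all 6 pairs. The mean residuals of the mitotic set did not pair in this way. In CD26- and CD26+ NFs they were 0.043 and -0.726 with 13-MCB-17, and 0.139 and -0.264 with 10-SJK-221. With 13-MCB-44 they were -0.156 and 0.079, and with 13-MCB-138 -0.102 and 0.907. The signs were the same with 18-MCB-12 (-0.029 and -0.013) and 13-MCB-90 (0.104 and 0.017). Pairing by line was not tested for this set. The members and lists were chosen with earlier results of these data known. Per-library values are given for Mki67, Top2a, Cdk1, Ccnb1, Plk1 and Foxm1, the 3 members with the smallest p in each comparison are named, and the 2 with the smallest p in each further list may be. Part of the genotype of the tumour model is not reported here.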

Additional observations from a re-analysis of the deposited data

Results flagged for a closer look

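Replicate 18 was separated from the other 5 CD26+ CM libraries by Dixon's test at the 95% level for 18 of the 38 genes. Its values were 105 CPM for Cdk1, 84.1 for Ccna2, 14.6 for Cdc25c, 63.1 for Foxm1, 45.4 for Plk1, 28.1 for Aurkb, 29.4 for Ttk, 41.4 for Bub1, 60.3 for Bub1b, 12.8 for Pttg1, 37 for Birc5, 69.1 for Incenp, 68.4 for Cenpe, 29.2 for Nuf2, 65.6 for Kif11, 120 for Tpx2, 63 for Prc1 and 292 CPM for Top2a, each the highest of the group. In the CD26- CM group the same test separated replicate 7 with the lowest values of Cks2 (12.9 CPM) and Nuf2 (25.5 CPM), and replicate 8 with the highest value of Ube2c (58.6 CPM). Chance separates about 1 in 20 groups, 76 groups were tested, and the genes are not independent.

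The effect of CM differed between CD26+ and CD26- NFs at an edgeR FDR under 0.05 for 9 genes, with log2 differences of -0.84 for Ccnb1, -0.88 for Ccnb2, -0.59 for Cks2, -1.14 for Plk1, -0.96 for Bub1b, -1.06 for Cdc20, -1.09 for Birc5, -0.88 for Incenp and -0.96 for Cdca8. The FDR ran from 0.0248 to 0.0497.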

How the results depend on the processing

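The count of members lower with CM in CD26+ NFs was 37 and stayed between 34 and 38 without single libraries. In the fit of the CD26+ libraries alone it was 28, against the background given above for that fit. In CD26- NFs the count was 0 in every fit. The 38 lower in CD26+ NFs in tumour CM stayed 38 in every fit but that with the log2 limit. The log2 limit of 2 left 0 in each comparison. In control medium the 3 lower genes became 7 with library totals only (35.1% of all genes) and 21, with 1 higher, in a fit of those 2 groups, and ran from 1 to 7 without single libraries; the median log2 difference was -0.33 with library totals only. For the difference between cell types, the 9 genes became 22 with DESeq2, 4 with library totals only and 33 with the CM line as a replicate block, and ran from 0 to 38 without single libraries. The block was fitted only for the 2 comparisons that hold both cell types in tumour CM, and the other, in tumour CM alone, stayed at 38. The line test called 5 members with no filter on low counts (8.33% of all genes of that fit) and 0 to 18 without single libraries. Values near 0 changed sign: Top2a in control medium was -0.11 with library totals only, and without single libraries the CM effect in CD26- NFs ran from -0.056 to 0.016 for Top2a, from -0.037 to 0.023 for Cdk1 and from -0.015 to 0.054 for Ccnb1, and the control-medium difference of Mki67 from -0.15 to 0.048. The cause of these shifts was not tested, and with 3 control libraries and 1 library per line the spread between lines and between cultures cannot be told apart.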
